A study of Saccharomyces cerevisiae with 6 samples.

Results

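Ribosome-associated chaperones were followed at the mRNA level in budding yeast (Saccharomyces cerevisiae) depleted of Rio1, an essential kinase of small ribosomal subunit maturation. The 7 genes were taken by identifier out of 6692 in the files: SSB1 (YDL229W), SSB2 (YNL209W), SSZ1 (YHR064C) and ZUO1 (YGR285C) of the Hsp70 system on the ribosome, and EGD1 (YPL037C), EGD2 (YHR193C) and BTT1 (YDR252W) of the nascent polypeptide-associated complex. All 7 were present and passed the filter on low counts. In the 3 Rio1-depleted libraries RIO1-AID cells had 500 µM auxin for 1 h before harvest, and in the 3 control libraries RIO1-AID cells had none. Cells of both groups were MATa W303 haploids with OsTIR1, the plant F-box protein that lets auxin trigger degradation of the tagged kinase, under the ADH1 promoter. Both carried the alleles ura3-1, his3-11,15, can1-100, trp1-1 and ade2-1 and a mutant allele of leu2, and were grown in YPD at 23 °C. The titles call the controls wild type while the other fields name the degron strain, and no library with auxin and intact Rio1 was analysed here. RIO1 mRNA had 130, 113 and 94.0 CPM (a gene's reads scaled to a fixed library total) in depleted libraries, against 66.0, 66.6 and 63.1 CPM in control libraries, and no check of the depletion follows from it because auxin removes the protein. Gene counts per library ran from 683896 to 1671136. Separate cultures are named in no label, so the p-values reflect only how far these libraries spread, in part perhaps for technical reasons.

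As background, a polypeptide leaving the ribosomal tunnel is met by chaperones docked around the exit. Ssb1 and Ssb2 are near-identical Hsp70 proteins that bind the emerging chain. Ssz1, an atypical Hsp70, and Zuo1, a J-domain protein, form the ribosome-associated complex, which stimulates the ATPase of Ssb. Egd2 and Egd1 are the alpha and beta subunits of the nascent polypeptide-associated complex, and Btt1 is an alternative, scarce beta subunit. In yeast, SSB transcripts are known to be regulated together with those of ribosomal proteins rather than with those of stress-induced Hsp70 genes.

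The coding sequences set how well the counts tell the members apart. SSB1 (chrIV:44065-45906, plus strand, R64) and SSB2 (chrXIV:252059-253900, plus strand) were identical at 97.4% of 1842 bases, with 1 uninterrupted identical run of 563 bases. Of the windows of 50 bases in either gene, 43.2% occur at another place in the genome, against 0% in each of the other 5 members. Reads with more than 1 alignment are left out of the counts, so both SSB genes are undercounted by an amount that depends on the read length, which no source used here states. The stretch where they differ most is shown because reads from such places are what the separate SSB1 and SSB2 counts rest on, with capitals at differing bases. EGD1 (chrXVI:481428-481901, minus strand) and BTT1 (chrIV:963412-963861, plus strand) were identical at 60.7% of 450 aligned bases, and the window where they are most alike is shown for contrast. All sequences are from RefSeq R64, the assembly known as sacCer3, and read along the coding strand.
SSB1 (chrIV:45312-45371): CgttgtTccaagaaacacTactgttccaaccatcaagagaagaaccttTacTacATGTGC
SSB2 (chrXIV:253306-253365): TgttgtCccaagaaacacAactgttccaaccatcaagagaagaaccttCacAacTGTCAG
EGD1 (chrXVI:481830-481889): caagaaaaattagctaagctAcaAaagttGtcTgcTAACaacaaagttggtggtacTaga
BTT1 (chrIV:963424-963483): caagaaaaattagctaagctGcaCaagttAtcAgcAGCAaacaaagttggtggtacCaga

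SSZ1 lies at chrVIII:225525-227141, ZUO1 at chrVII:1061852-1063153 and EGD2 at chrVIII:487712-488236, all on the minus strand. None of the 7 members overlaps another gene of the R64 annotation. The files also count YDL228C (5 to 19 reads per library) and YHR193C-A (0 reads in all 6), whose systematic names put them next to SSB1 and EGD2 and which are not in the R64 table used here. Reads shared with them, if any, would not be in the SSB1 and EGD2 counts, and their part in the results was not tested.

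In depleted cells 4 members fell by a similar factor and both genes of the ribosome-associated complex stayed close to their control level. SSB1, SSB2, EGD1 and EGD2 were 1.58-fold to 1.67-fold lower than in controls, while SSZ1 and ZUO1 were within 1.03-fold of controls and BTT1 was too scarce to judge. The test was edgeR's quasi-likelihood test over all 5195 genes that passed the filter, with Benjamini-Hochberg adjustment and a call at an adjusted p under 0.05. By it 4 of 7 members were lower and 0 higher (also 0 higher at an unadjusted p under 0.05 and in DESeq2), where 14.1% of all tested genes were lower and 14.1% higher. Every log2 fold change here is depleted minus control. Like the CPM values, these changes are relative to TMM scaling, which sets libraries level on the bulk of their genes. In bulk RNA, fewer cells and less RNA per cell cannot be told apart. Tested against a 1.5-fold change instead of 0 (glmTreat in edgeR), 0 members were called lower, where 3.66% of all genes were.

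The Ssb genes encode the Hsp70 that binds the nascent chain. SSB1 stood at 698, 678 and 864 CPM in depleted libraries 1 to 3, against 1121, 1055 and 1476 CPM in control libraries 1 to 3. All 3 depleted values lay below the lowest control, and depleted library 3 and control library 3 were the highest of their groups. The fitted change was -0.71 ± 0.14 on the log2 scale (SE, n = 3 each), 1.63-fold lower, with an edgeR adjusted p of 0.000965. SSB2 stood at 1095, 969 and 1176 CPM in depleted libraries, against 1741, 1616 and 1746 CPM in control libraries. Again the groups did not overlap, and the control libraries were close to each other. The fitted change was -0.66 ± 0.12 (SE), 1.58-fold lower, with an edgeR adjusted p of 0.000395.

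Ssz1 and Zuo1 act as one complex that activates Ssb. SSZ1 had 683, 662 and 774 CPM in depleted libraries, against 647, 694 and 710 CPM in control libraries. ZUO1 had 858, 924 and 877 CPM in depleted libraries, against 840, 888 and 865 CPM in control libraries. The groups overlapped for both genes. The log2 fold change of SSZ1 was 0.05 with a 95% interval from -0.20 to 0.29 (edgeR adjusted p = 0.809), and that of ZUO1 was 0.04 with an interval from -0.20 to 0.27 (edgeR adjusted p = 0.845). These intervals leave room for changes of either sign up to their bounds, but they do not reach the intervals of SSB1 (-1.01 to -0.41) and SSB2 (-0.91 to -0.40).

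The nascent polypeptide-associated complex shields short emerging chains. EGD1, its main beta subunit gene, had 1085, 1235 and 836 CPM in depleted libraries, against 1944, 1647 and 1668 CPM in control libraries. The alpha subunit gene EGD2 had 648, 821 and 451 CPM in depleted libraries, against 998, 949 and 1198 CPM in control libraries. For both genes every depleted library lay below every control library, and depleted library 3 was the lowest of all 6. EGD1 changed by -0.74 ± 0.14 on the log2 scale (SE; 1.67-fold lower, edgeR adjusted p = 0.000602) and EGD2 by -0.71 ± 0.17 (1.64-fold lower, edgeR adjusted p = 0.00338). Groups that did not overlap, with depleted libraries lower, were found for 4 of 7 members and for 20.0% of all tested genes.

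BTT1, the alternative beta subunit gene, was counted with 8, 15 and 3 reads in depleted libraries, against 11, 19 and 15 reads in control libraries. That corresponds to 10.4, 13.1 and 2.97 CPM in depleted libraries and 15.8, 16.9 and 10.1 CPM in control libraries, and the groups overlapped. The log2 fold change of -0.63 had a 95% interval from -1.57 to 0.30 (edgeR adjusted p = 0.327), so a change was not detectable at this depth. The value was -0.21 without depleted library 3 and -1.13 without depleted library 2.

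**Figure D1:**
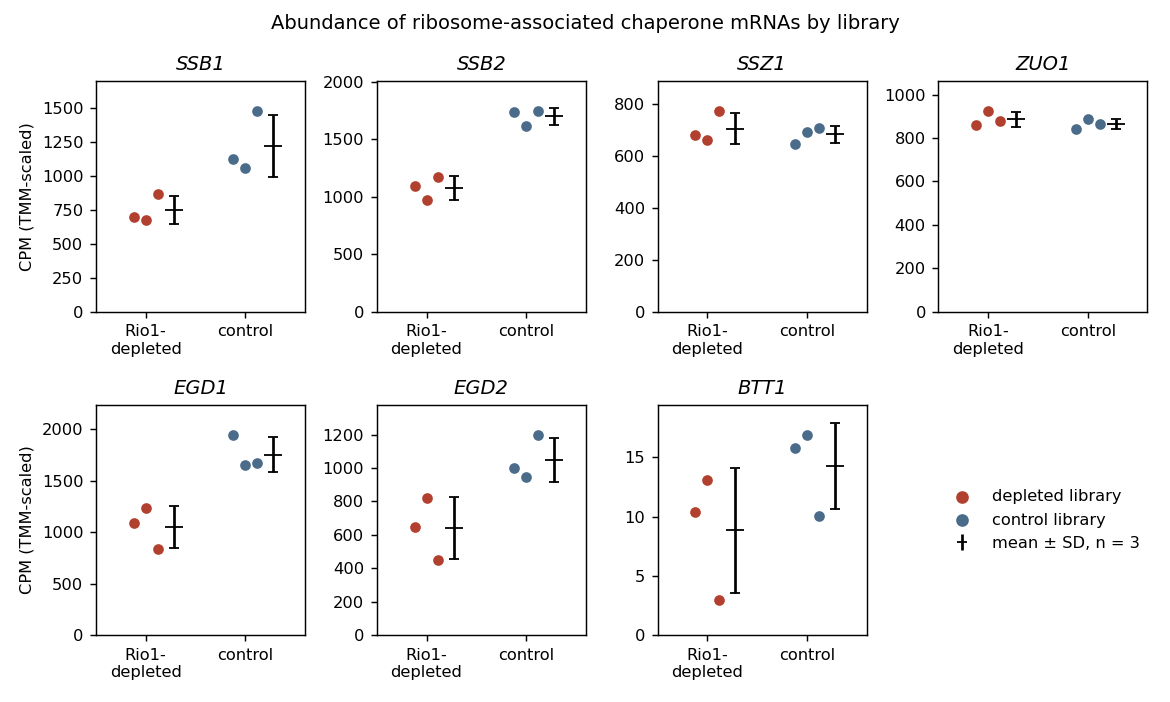
TMM-scaled CPM of the 7 members, 1 panel per gene with its own axis from 0; points are libraries and bars the mean ± SD of 3 depleted or 3 control libraries. SSB1, SSB2, EGD1 and EGD2 show no overlap between groups, while SSZ1, ZUO1 and BTT1 do overlap.

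Within the depleted group, library 3 was lower for the nascent polypeptide-associated complex genes and higher for SSB1, SSB2 and SSZ1. This contrast rests on 1 library, in which BTT1 had 3 reads. In depleted library 3, set against the mean of log2 values in depleted libraries 1 and 2, EGD1 was lower by a log2 difference of -0.47, EGD2 by -0.69 and BTT1 by -1.98. SSB1 was higher there by 0.33, SSB2 by 0.19 and SSZ1 by 0.20, and ZUO1 stood at -0.02. The 3 genes that were low in depleted library 3 are also the 3 shortest members, with coding lengths of 474, 525 and 450 bases. Among 207 other tested genes of 400 to 600 bases and at least 50 CPM, the median of the same difference was -0.08, and among 2403 genes over 1000 bases it was 0.02. The part of gene length in the spread of EGD1 and EGD2 was not tested further. Without depleted library 3 both genes were still called lower, EGD1 at -0.60 (edgeR adjusted p = 0.00155) and EGD2 at -0.51 (edgeR adjusted p = 0.00836).

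The calls of 3 members depended on the scaling. Scaled by library totals alone, the log2 fold change of the median gene was 0.315 higher. There SSB1, SSB2 and EGD1 were still called lower (-0.39, -0.34 and -0.42; edgeR adjusted p = 0.0399, 0.0375 and 0.0221) and EGD2 at -0.40 was not (edgeR adjusted p = 0.0619). SSZ1 and ZUO1 were then called higher, at 0.36 and 0.35 (edgeR adjusted p = 0.0215 and 0.0205), where 33.9% of all genes were higher and 5.89% lower.

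**Figure D2:**
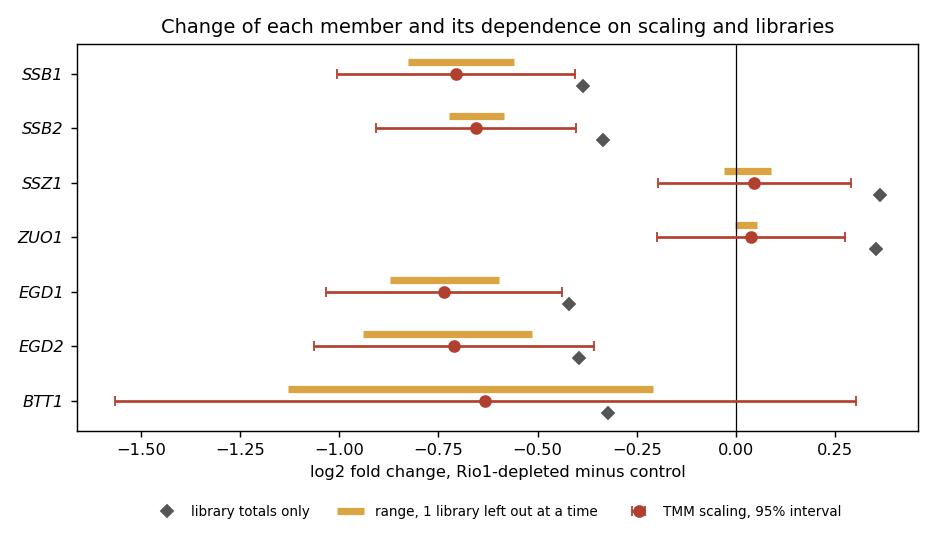
Log2 fold change of each member, depleted minus control (x axis): red points with 95% intervals use TMM scaling, grey diamonds library totals only, and yellow bars span the values with 1 library left out at a time. SSZ1 and ZUO1 sit at 0.05 and 0.04 with TMM and at 0.36 and 0.35 with totals only, always to the right of the 4 called genes.

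Ratios of reads inside a library do not depend on scaling. Reads of SSB1 and SSB2 per read of SSZ1 and ZUO1 were 1.16, 1.04 and 1.24 in depleted libraries, against 1.92, 1.69 and 2.05 in control libraries. Reads of EGD1 and EGD2 per read of SSZ1 and ZUO1 were 1.12, 1.30 and 0.779 in depleted libraries, against 1.98, 1.64 and 1.82 in control libraries. The groups did not overlap in either ratio. Each of the 4 genes over each of SSZ1 and ZUO1 gave 8 single ratios, chosen after the values were seen, and all 8 were lower in every depleted library than in any control library. These ratios share genes and restate the member changes given above, so the 8 are not separate results. Their log2 differences, depleted minus control, ran from -0.80 ± 0.26 (SE) for EGD1 over SSZ1 to -0.70 ± 0.12 for SSB2 over ZUO1. The two-sided exact permutation p was 0.1 for each, also after adjustment over the 8, and 0.1 is the smallest value that 3 libraries against 3 can give.

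Ratios between partners differed between the groups by less than the spread of the libraries. Reads of EGD1 and EGD2 per read of SSB1 and SSB2 averaged 0.949 ± 0.309 in depleted and 0.963 ± 0.069 in control libraries (SD, n = 3 each). The log2 ratio of SSB1 to SSB2 was -0.54 ± 0.10 in depleted and -0.50 ± 0.22 in control libraries, a difference of -0.04. That of SSZ1 to ZUO1 was -0.33 ± 0.15 in depleted and -0.34 ± 0.05 in control libraries, a difference of 0.01. For EGD1 to EGD2 it was 0.74 ± 0.15 in depleted and 0.74 ± 0.25 in control libraries, a difference of -0.01. BTT1 gave 0.00960, 0.0106 and 0.00355 reads per EGD1 read in depleted libraries, against 0.00812, 0.0102 and 0.00604 in control libraries. Two-sided exact permutation p-values for these 4 within-complex ratios were 0.8, 1, 1 and 0.9, each 1 after adjustment, in a design that cannot call a difference.

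**Figure D3:**
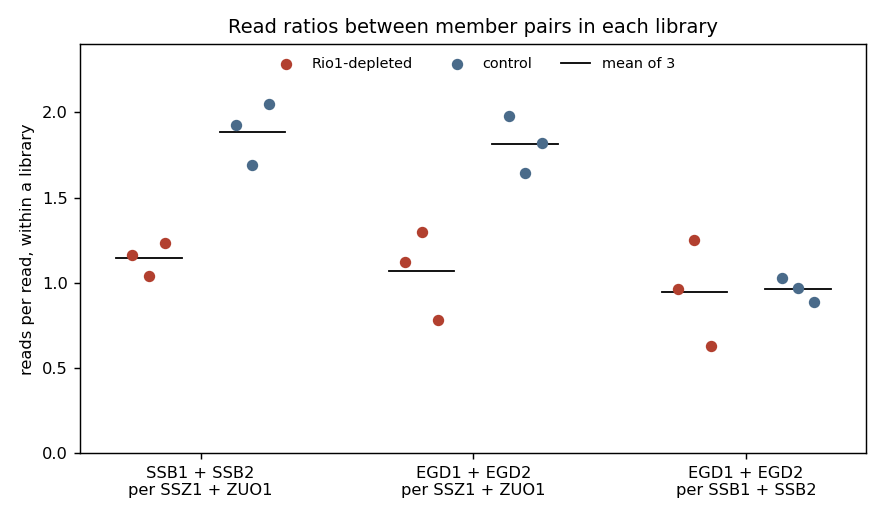
Reads per read between pairs of members in each library, from 0; red points are the 3 depleted libraries, blue points the 3 control libraries and lines their means. Both ratios over SSZ1 and ZUO1 are lower in every depleted library, and the ratio of the EGD to the SSB genes overlaps.

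Per length, the order of the members as counted differed between the groups, and each change of order involved an SSB gene. In depleted libraries EGD1 had 2219 ± 426 CPM per kb of coding sequence, EGD2 1220 ± 353, ZUO1 681 ± 26, SSB2 586 ± 56.6, SSZ1 437 ± 36.9, SSB1 405 ± 55.5 and BTT1 19.6 ± 11.7 (SD, n = 3). In control libraries EGD1 had 3698 ± 349 CPM per kb, EGD2 1997 ± 252, SSB2 924 ± 40.1, ZUO1 664 ± 18.4, SSB1 661 ± 123, SSZ1 423 ± 20.2 and BTT1 31.7 ± 8.12. SSZ1 and SSB1 in depleted libraries, and ZUO1 and SSB1 in control libraries, did not differ beyond their spread. By level per kb among 5123 tested genes with a length, EGD1 ranked 41 in depleted and 50 in control cells, ZUO1 ranked 182 in depleted and 249 in control cells, and SSB2 ranked 214 in depleted and 191 in control cells. A rank also moves with the levels of other genes, as for EGD1, which ranked higher in depleted cells at a lower level of its own. The SSB levels are too low by the reads they share, so whether the order of the mRNAs themselves changed was not established.

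The ribosomal proteins these chaperones dock on had lower log2 fold changes than any member. Of 14 genes for proteins around the tunnel exit, 14 were lower and 0 higher, with log2 fold changes from -2.48 to -1.07 and a median of -1.52, against a median of 0.01 over all tested genes. They include RPL31B (-2.33 ± 0.16, SE), whose product is a contact of Zuo1, together with RPL22B (-2.48 ± 0.18), RPL26A (-1.71 ± 0.13) and RPL35A (-1.60 ± 0.28). RPL25, the docking protein of the nascent polypeptide-associated complex and of the signal recognition particle, averaged 1831 ± 49.8 CPM in depleted and 4983 ± 476 CPM in control libraries (SD, n = 3 each; named after its value was seen). The fall was not particular to the tunnel exit. Among all 135 tested cytosolic ribosomal protein genes the test called 132 lower, and their median log2 fold change was -1.47, close to that of the tunnel exit list. Of these 135 genes, 129 had a lower log2 fold change than each of SSB1, SSB2, EGD1 and EGD2. Ribosomal protein genes held on average 11.4% of gene reads in depleted and 24.9% in control libraries. All 7 members together held 0.569% in depleted and 0.650% in control libraries. Per 100 reads of ribosomal protein genes there were thus more chaperone reads in depleted libraries, although the members together held a smaller share of all gene reads. SSB1 and SSB2 gave 1.78 ± 0.193 in depleted and 1.05 ± 0.102 in control libraries, EGD1 and EGD2 1.65 ± 0.375 in depleted and 1.00 ± 0.0512 in control libraries, and SSZ1 and ZUO1 1.56 ± 0.0384 in depleted and 0.555 ± 0.0290 in control libraries (SD, n = 3 each). Many ribosomal protein genes have near-identical copies whose shared reads are not counted.

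Some genes of the soluble Hsp70 family were higher in depleted cells. Of the 4 SSA genes, which encode cytosolic Hsp70 proteins not tied to the ribosome, 3 were higher and 0 lower, with a median of 0.78. Among all tested genes 14.1% were higher and 14.1% lower. SSA1, one of the constitutive members that heat also induces, averaged 485 ± 77.5 CPM in depleted and 117 ± 8.42 CPM in control libraries (SD, n = 3 each), 4.16-fold higher with an edgeR log2 fold change of 2.06 ± 0.13 (SE). SSA3 (0.86 ± 0.25) and SSA4 (0.71 ± 0.24), which are stress-induced, were also higher. In DESeq2, and without depleted library 2 or depleted library 3, 2 of the 4 genes were called. Only 1 of the 4 was called without control library 1 or control library 3, or among genes averaging 50 counts or more. SSA2, the most abundant of the family, did not pass the test, with 5063 ± 873 CPM in depleted and 4319 ± 622 CPM in control libraries (SD, n = 3 each; log2 fold change 0.23, edgeR adjusted p = 0.217; picked after its value was known). Reads of the 4 SSA genes per read of SSB1 and SSB2 were 2.63, 3.57 and 3.13 in depleted libraries, against 1.35, 1.69 and 1.59 in control libraries. Reads shared among the SSA genes, if any, are not counted, and that loss was not measured. Of 5 exchange factor and J protein genes, 2 were higher and 0 lower, with a median of 0.41. These were SSE1 (0.43 ± 0.10), an Hsp110 that exchanges nucleotide on Ssb as well as Ssa, and FES1 (0.47 ± 0.12), another exchange factor; 1 of the 5 was called without control library 2 or control library 3.

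Among other factors that act on nascent or newly made chains, some genes passed the test, where 14.1% of all tested genes were lower and 14.1% higher. No gene of these lists was called lower with library totals only, where 5.89% of all genes were lower and 33.9% higher. Of 8 genes of the signal recognition particle and its receptor, which bring ribosomes to the endoplasmic reticulum, 0 were called by edgeR or DESeq2 and 2 had an unadjusted p under 0.05, with a median of -0.03. In that list 1 gene was called lower without depleted library 1, depleted library 2 or control library 1, and also with the replicate block, limma-voom, no count filter, TMM without ribosomal protein genes or YLR154 rows left out. The most abundant members SRP68 and SRP72 had log2 fold changes of 0.02 and -0.28. Of 7 tested N-terminal acetyltransferase genes out of 9, 2 were lower and 0 higher, NAT3 (-0.87 ± 0.24) and ARD1 (-0.46 ± 0.15), the catalytic subunits of NatB and NatA, and 1 gene was called without depleted library 1 or control library 3, in DESeq2 or among genes averaging 50 counts or more. Library totals alone gave 0 lower and 1 higher here. The methionine aminopeptidase gene MAP2 was lower (-0.33 ± 0.12), 1 of 3 genes of its list, a call kept only in the fit without depleted library 1 among the fits that leave out 1 library, and not made by DESeq2 or among genes averaging 50 counts or more. Under library totals that list had 0 lower and 1 higher. In the GET pathway for tail-anchored membrane proteins 2 of 6 genes were higher and 1 lower. The co-chaperone gene SGT2 (0.98 ± 0.12) and the targeting ATPase gene GET3 (0.68 ± 0.10) were the higher ones, and GET4 (-0.58 ± 0.15) was the lower one, a call not made with library totals only. Of 6 prefoldin genes 0 were called by edgeR or DESeq2 and 2 had an unadjusted p under 0.05, with a median of 0.06. GIM4 at 0.24 and PAC10 at -0.33 are named as the most abundant of the list, not for their p-values. Without depleted library 2, 1 prefoldin gene was called lower, and with library totals only 2 were called higher.

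Ssz1 and Zuo1 have a second known role, since each can activate the drug resistance regulator Pdr1 when free of the ribosome. Of 10 genes on a list of Pdr1 targets with PDR3, 4 were higher and 1 lower, with a median of 0.54. Among all tested genes 14.1% were higher and 14.1% lower. Any part of Ssz1 or Zuo1 in these changes was not tested. The transporter genes PDR15 (0.81 ± 0.19) and YOR1 (0.57 ± 0.13) and the regulator gene PDR3 (0.54 ± 0.17) were higher, and PDR16, a lipid transfer protein gene, was lower (-0.38 ± 0.11). The transporter gene PDR5 averaged 482 ± 64.5 CPM in depleted and 496 ± 48.8 CPM in control libraries (SD, n = 3 each), a log2 difference of -0.05, and was picked after its value was known. The count of higher genes came to 2 without depleted library 3, control library 2 or control library 3, and that of lower genes to 0 without control library 1. Library totals alone gave 7 higher and 0 lower, where 33.9% of all genes were higher and 5.89% lower.

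**Figure D4:**
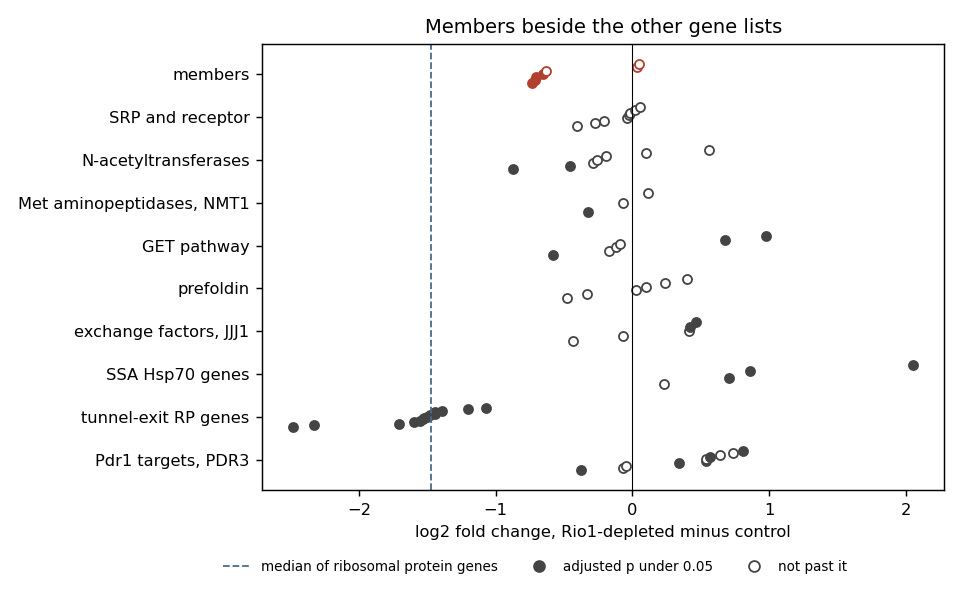
Log2 fold change, depleted minus control (x axis), of the 7 members (red, top) and of 9 other gene lists, 1 point per tested gene; filled points passed an adjusted p of 0.05 and the dashed line is the median of ribosomal protein genes (-1.47). All 7 members lie to the right of the dashed line, SSZ1 and ZUO1 just right of 0, and 3 SSA genes are filled and to the right of 0.

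Genes outside the set with the most similar profiles were found by Euclidean distance between log2 CPM values over the 6 libraries, centred on their mean, among 3375 genes with at least 50 CPM. Nearest to the mean profile of SSB1 and SSB2 were IMD2, ARO4, ELO2, SMF3 and GPI17, at distances of 0.152 to 0.183, where the distance between SSB1 and SSB2 themselves was 0.348 and the median candidate lay at 0.982. Nearest to EGD1 and EGD2 were YLR278C, TRP4, ETT1, ISD11 and YMR315W, at 0.126 to 0.331, against 0.407 between EGD1 and EGD2. For SSZ1 and ZUO1 they were FAA1, YBT1, RBA50, TRM2 and PSE1, at 0.0894 to 0.105. There SSZ1 and ZUO1 lay 0.223 apart and the median candidate at 0.583. The profiles of SSZ1 and ZUO1 had a correlation of only 0.05, so their mean profile describes neither gene closely. No ribosomal protein gene was among the 15 genes named here. The distance includes the size of the change, and 129 of 135 tested ribosomal protein genes had a lower log2 fold change than each called member. Their absence therefore adds nothing to those values, and shared regulation was not tested.

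The upstream sequences were read because genes of ribosome assembly often carry a pair of known elements, RRPE and PAC, and ribosomal protein genes a Rap1 site. The window ran from 250 bases before to 50 bases from the start codon, on both strands. The RRPE letters AAAATTTT were found in SSB1, SSB2, EGD1 and EGD2, the 4 members called lower, and in 9.03% of 6001 promoters. With 1 letter fewer, AAATTTT, the match extended to SSZ1 and ZUO1, so 6 of 7 members held it, against 23.2% of promoters. The stretch from 190 to 101 bases before the start codon is shown for these 6, with matches that lie wholly inside it in capitals. ZUO1 has further matches that begin 103 and 76 bases before its start codon.
SSB1 (chrIV:43875-43964, plus): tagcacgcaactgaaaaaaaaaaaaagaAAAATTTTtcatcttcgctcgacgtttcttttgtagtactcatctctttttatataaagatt
SSB2 (chrXIV:251869-251958, plus): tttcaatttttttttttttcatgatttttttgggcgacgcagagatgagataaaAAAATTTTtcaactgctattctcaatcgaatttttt
EGD1 (chrXVI:482002-482091, minus): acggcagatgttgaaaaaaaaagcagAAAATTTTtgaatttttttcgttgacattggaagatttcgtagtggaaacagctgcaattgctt
EGD2 (chrVIII:488337-488426, minus): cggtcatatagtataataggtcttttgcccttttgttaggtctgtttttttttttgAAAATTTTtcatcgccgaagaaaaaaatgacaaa
SSZ1 (chrVIII:227242-227331, minus): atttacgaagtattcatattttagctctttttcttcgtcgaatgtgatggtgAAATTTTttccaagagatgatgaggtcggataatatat
ZUO1 (chrVII:1063254-1063343, minus): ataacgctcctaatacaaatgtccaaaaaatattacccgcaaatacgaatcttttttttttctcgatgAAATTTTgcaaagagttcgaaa

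The 8 letters began 162, 136, 164 and 134 bases before the start codon of SSB1, SSB2, EGD1 and EGD2. The match does not separate genes that fell in the genome as a whole. Of 496 other tested genes with AAAATTTT in the window 11.1% were lower and 16.7% higher, and of 4601 without it 14.5% were lower and 14.0% higher. PAC, searched as GATGAG, was found in SSB1, SSB2 and SSZ1 and in 20.4% of promoters. The heat shock element was searched as GAANNTTC, found in EGD1 and 11.8% of promoters, and as TTCNNGAA, found in SSB2 and 12.9%. The stress element CCCCT was in EGD1 and 21.6% of promoters. The Rap1 letters ACCCNNACA were in EGD2, in 2.83% of promoters and in 8.76% of 137 ribosomal protein promoters. Since most ribosomal protein promoters also lacked these letters in this window, their absence from a member says little. The proteasome element GGTGGCAAA (72 of 6001 promoters), the Gcn4 site TGACTC (7.98%) and the Pdr1 site TCCGCGGA (0.217%) were in none of the 7 windows. Matches between different motifs may overlap, and a match is not evidence of binding.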

How the data were processed

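Hot-phenol RNA was cleared of rRNA (Ribo-Zero Gold) and made into ScriptSeq v2 libraries, per the labels' protocols. The deposited files hold raw read counts, 1 row per gene, and end in 5 summary rows of HTSeq type. The submitters' processing notes name HTSeq, DESeq, TopHat2 2.0.8 and the sacCer3 build, without roles, settings, strand option or annotation. Summary rows held 64.4% to 77.8% of all entries of a file, and reads with more than 1 alignment alone 45.2% to 65.9% of all entries; these rows were left out of library sizes. Reads in the YLR154 rows, inside the rDNA, were 4.12% of the gene reads of depleted library 2 and 1.48% of those of control library 1, and at most 0.197% in the others.

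Counts of all 6 libraries were fitted together with edgeR 4.0.16 in R 4.3.3 (TMM, filterByExpr with minimum count 10 and total 15, glmQLFit, glmQLFTest, Benjamini-Hochberg over 5195 genes); the code was tested on simulated data. Each standard error is the size of the log2 fold change over the square root of F. Locus tags of 6008 of 6692 identifiers matched RefSeq R64, the source of symbols, lengths and sequences. Alternatives were RLE factors, library totals, TMM without ribosomal protein genes, YLR154 rows left out, 2 count filters, DESeq2 1.42.0, limma-voom (limma 3.58.1), glmTreat, a replicate block and libraries left out. Members, lists and tests were chosen with earlier results of these data known. Named genes are the members, up to 4 called members of each list by size of change (or its 2 most abundant), and the 5 nearest profiles to each pair; exceptions are said to be.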

Additional observations from a re-analysis of the deposited data

How the results depend on the processing

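The count of 4 members lower and 0 higher was the same under RLE factors, TMM without ribosomal protein genes, no filter, a mean of at least 50 counts (where BTT1 was not tested), DESeq2, limma-voom, YLR154 rows left out, both libraries rich in YLR154 reads left out, and each library left out in turn. With library totals only, 3 members were lower and 2 higher, the genome-wide split was 306 lower and 1761 higher (85.2% of calls higher, against 50%), and 20 genes of the 9 lists were higher. Tested against 1.5-fold with glmTreat, 0 members were lower (adjusted p = 0.39 to 0.689 for the 4), with 190 genes lower and 204 higher in all and 2 list genes higher (1 of the SSA and 1 of the GET list, and 0 of the exchange factor and Pdr1 lists), so a fall larger than 1.5-fold was not shown. With 1 library left out, genome-wide counts ran from 591 to 699 lower and 529 to 669 higher, list genes higher from 6 to 10, SSB1 from -0.83 to -0.56, SSB2 from -0.72 to -0.59, EGD1 from -0.87 to -0.60 and EGD2 from -0.94 to -0.51. BTT1 ran from -1.13 without depleted library 2 to -0.21 without depleted library 3. Differences of the log2 ratios ran from -0.11 to 0.09 for SSB1 over SSB2, -0.07 to 0.08 for SSZ1 over ZUO1, -0.14 to 0.10 for EGD1 over EGD2 and -0.44 to 0.35 for BTT1 over EGD1. Libraries with the same number did not deviate together (correlations of -0.06, -0.00079 and 0.08), and the replicate block gave 4 members lower, 756 genes lower and 741 higher. Depth limits BTT1, where 1 read is worth 0.671 to 1.44 CPM.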
